A study of Mus musculus with 12 samples.

Results

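The salt-inducible kinases, the CRTC coactivators and the CREB family form 1 signaling arm, and 9 of its genes were followed in MIN6 cells, an insulin-secreting line derived from a mouse insulinoma. The 9 genes were Sik1, Sik2, Sik3, Crtc1, Crtc2, Crtc3, Creb1, Crem and Atf1, out of 54022 genes in the deposited tables. They were chosen by gene name, with the glucose contrasts of these same libraries known. Sik1 was selected on its rise with glucose, which was the largest among 16222 tested genes. Values for high against low glucose are therefore given for the 9 genes as a description, with no test. Wild-type MIN6 cells were given vehicle or TMAO (trimethylamine N-oxide, 100 nM, 18 h) and then low or high glucose. Each of the 4 conditions had 3 libraries, which the submitters call biological replicates. All 12 libraries came from 1 cell line, so p-values measure the spread between these cultures only.

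SIK kinases belong to the AMPK-related family and are switched on by the kinase LKB1. When cAMP rises, PKA phosphorylates them and their hold on the CRTC coactivators is released. Calcium acts on the same coactivators through the phosphatase calcineurin. CRTC proteins then enter the nucleus and join CREB on cAMP response elements (CREs). In β-cells this route is known as a meeting point of glucose and incretin signals. Sik1 is itself a CREB target and can feed back on the pathway. RNA was measured here, so kinase activity, phosphorylation and the place of CRTC proteins in the cell were not seen.

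Counts per library ranged from 16793162 to 22340542. All 9 genes passed the filter on low counts, and the lowest count of any of them in a library was 136, for Sik1 in low glucose. Beta-cell markers were abundant in each library, with Ins2 between 22781 and 27445 FPKM (fragments per kilobase of gene, scaled to the library total). The summed level of 10 beta-cell markers was 40480 to 43993 FPKM in low and 44146 to 45715 FPKM in high glucose with vehicle, and overlapped between glucose levels with TMAO. Gcg, the alpha-cell hormone gene, was at 202 to 216 FPKM in low and 223 to 227 FPKM in high glucose with vehicle, and at 199.6 to 212 and 222 to 226 FPKM with TMAO. Of 2 delta-cell genes, Hhex had no count and Sst was at 0.535 to 2.11 FPKM. Their sum was higher in high glucose with TMAO (1.27 to 1.69 against 0.535 to 1.204 FPKM) and overlapped with vehicle. The duct genes Krt19 and Sox9 had no count in any library. Of 4 macrophage genes, Ptprc and Adgre1 had no count, Csf1r had at most 3 counts and Cd68 was at 2.88 to 4.84 FPKM. Their summed level was 2.91 to 3.63 FPKM in low and 4.36 to 4.87 FPKM in high glucose with vehicle, and 3.88 to 4.10 and 4.13 to 4.30 FPKM with TMAO. Gcg and the macrophage sum were thus higher in high glucose with each treatment, the beta-cell sum with vehicle and the delta-cell sum with TMAO, without overlap between libraries. Between TMAO and vehicle, the macrophage sum did not overlap at either glucose level, being higher with TMAO in low and lower in high glucose. The delta-cell sum did not overlap in low glucose, at 0.535 to 1.204 FPKM with TMAO and 1.25 to 2.11 FPKM with vehicle. Ppy, the pancreatic polypeptide gene, had at most 1 count in a library, and in high glucose had it with TMAO alone. Of all tested genes, 11.2% in high and 6.34% in low glucose did not overlap between TMAO and vehicle. Between glucose levels, 18.9% did not overlap with vehicle and 18.6% with TMAO. The part of these markers in the results was not tested.

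Sik1 had the widest range of the 9 genes. Sik1 (ENSMUSG00000024042, minus strand of chromosome 17, 31844248 to 31855792 on mm10) encodes the member of the kinase family best known for being induced at the RNA level. With vehicle in low glucose, its FPKM was 1.60, 1.82 and 1.62. With TMAO in low glucose, it was 1.61, 1.95 and 1.82. The 6 low-glucose libraries thus lay close together at the bottom of the range. In high glucose, Sik1 was 21.6, 21.7 and 25.4 FPKM with vehicle. It was 23.6, 25.7 and 25.2 FPKM with TMAO. The lowest high-glucose library was far above the highest low-glucose library.

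From low to high glucose, Sik1 had a log2 fold change of 3.77 with vehicle (SE 0.081), a 13.6-fold difference with a 95% confidence interval from 12.2 to 15.3. With TMAO it was 3.79 (SE 0.079), or 13.8-fold, with an interval from 12.4 to 15.5. Each was the highest log2 fold change among the tested genes, which is how the gene was chosen. In these bulk libraries, more cells expressing a gene and more RNA per cell cannot be told apart. The span from lowest to highest library was 16.1-fold for Sik1, 2.74-fold for Crem and at most 1.30-fold for each of the other genes.

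Sik2 and Sik3 did not share this pattern. Sik3 (ENSMUSG00000034135, plus strand of chromosome 9, 46012820 to 46224194) encodes the largest of the 3 kinases. Its FPKM in low glucose was 25.5, 25.3 and 24.6 with vehicle and 25.4, 24.9 and 26.3 with TMAO. In high glucose it was 23.9, 21.9 and 21.8 with vehicle and 23.1, 23.5 and 20.9 with TMAO. The high-glucose libraries were all below the low-glucose ones with either treatment. The log2 fold change was -0.15 (SE 0.049) with vehicle and -0.18 (SE 0.049) with TMAO. That is 0.899-fold and 0.881-fold, a small difference next to that of Sik1.

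Sik2 (ENSMUSG00000037112, minus strand of chromosome 9, 50892801 to 51009073) encodes the kinase described in adipose tissue and also in β-cells. Sik2 was the lowest of the SIK genes in high glucose. Its FPKM with vehicle was 2.78, 2.69 and 2.57 in low glucose and 3.00, 2.92 and 2.53 in high glucose, which overlapped. With TMAO it was 3.21, 2.95 and 2.78 in low glucose and 2.56, 2.71 and 2.75 in high glucose, which did not overlap. The log2 fold change with glucose was 0.076 (SE 0.075) with vehicle and -0.16 (SE 0.075) with TMAO. In GENCODE M21, 15% of the exon bases of Sik2 also belong to Ppp2r1b on the other strand. Ppp2r1b had a mean of 1461.4 counts against 504 for Sik2. Whether fragments were counted by strand is not given in the sources used here, so the level of Sik2 is uncertain.

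**Figure D1:**
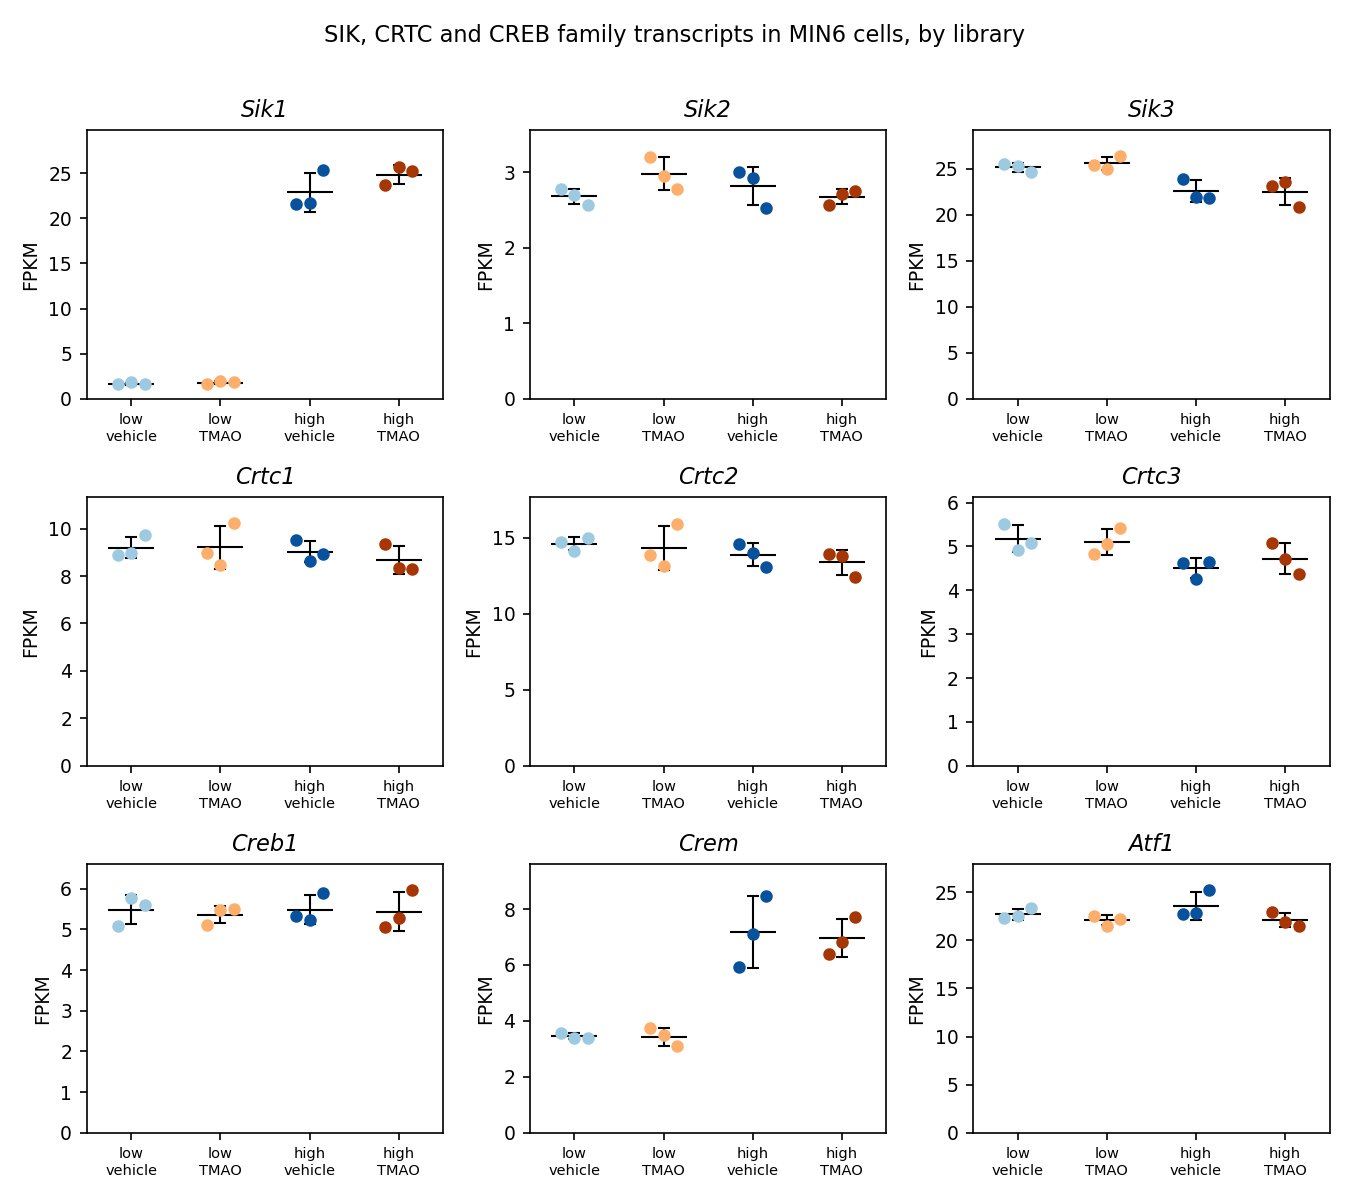
FPKM of the 9 genes in each of the 12 libraries (points), by glucose level and treatment, with the mean and SD of 3 libraries (black line and bars). Every vertical axis starts at 0 and has its own scale. Sik1 lies between 1.60 and 1.95 in low glucose and between 21.6 and 25.7 in high glucose, and Crem is the only other gene whose high-glucose libraries all lie above its low-glucose libraries.

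The makeup of the SIK family by RNA shifted with glucose. FPKM is a level per length, so the 3 genes can be summed. Sik1 made up 5.69% ± 0.39 (SD, n = 3) of the summed SIK FPKM in low glucose with vehicle and 47.4% ± 3.34 (SD, n = 3) in high glucose with vehicle. With TMAO the shares of Sik1 were 5.92% ± 0.61 and 49.7% ± 1.86 (SD, n = 3 each). Sik3 went from 85.2% to 46.8% with vehicle and from 84.3% to 45.0% with TMAO. Sik2 held between 5.35% and 9.83% in every condition. The summed level was 29.5 FPKM in low and 48.3 FPKM in high glucose with vehicle, and 30.4 and 50.03 FPKM with TMAO. In high glucose the shares of Sik1 and Sik3 overlapped between libraries with vehicle. With TMAO each Sik1 share was above each Sik3 share, the nearest being 47.9% and 46.9%. These levels use a Sik1 length of 4511 bases from the deposited table, whereas the exons of Sik1 in GENCODE M21 cover 5133 bases. With that length, tried after the data were seen, Sik1 in high glucose with TMAO was at 20.8, 22.6 and 22.2 FPKM and overlapped with Sik3. Its fold changes do not depend on the length.

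The CRTC genes, which encode the coactivators that SIK kinases hold in the cytoplasm, kept nearly the same proportions. Crtc2 (ENSMUSG00000027936, plus strand of chromosome 3, 90254163 to 90264125) is the form best known in liver and β-cells, and it was the highest of the 3 by FPKM. Crtc1 had more counts, a mean of 1906.8 against 1088.5 for Crtc2, with table lengths of 11182 and 4094 bases. The order and the shares therefore depend on the lengths used. The share of Crtc2 in the summed CRTC FPKM was between 49.96% and 50.6% in all 4 conditions. Crtc1 (ENSMUSG00000003575, minus strand of chromosome 8, 70382355 to 70439579), best known in neurons, held between 31.7% and 32.9%. Crtc3 (ENSMUSG00000030527, minus strand of chromosome 7, 80586627 to 80688877) held between 16.5% and 17.9%.

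Crtc2 ranged from 12.4 to 15.9 FPKM over the 12 libraries and Crtc1 from 8.31 to 10.21 FPKM. For both genes the libraries of the 2 glucose levels overlapped with each treatment. The log2 fold changes of Crtc2 with glucose were -0.07 (SE 0.065) with vehicle and -0.10 (SE 0.065) with TMAO. Those of Crtc1 were -0.02 (SE 0.064) and -0.09 (SE 0.064). Crtc3 was 5.52, 4.92 and 5.09 FPKM in low glucose and 4.63, 4.25 and 4.65 FPKM in high glucose with vehicle. These vehicle libraries did not overlap, with a log2 fold change of -0.20 (SE 0.066). With TMAO, Crtc3 was 4.82, 5.06 and 5.41 FPKM in low and 5.08, 4.72 and 4.37 FPKM in high glucose. The TMAO libraries overlapped, and the log2 fold change was -0.11 (SE 0.065).

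Among the transcription factors, Crem differed between glucose levels and Creb1 and Atf1 did not separate. Crem (ENSMUSG00000063889, minus strand of chromosome 18, 3266048 to 3337748) encodes both activators and, from an internal promoter, the repressor ICER, which cAMP induces. Its FPKM in low glucose was 3.58, 3.41 and 3.37 with vehicle and 3.73, 3.49 and 3.10 with TMAO. In high glucose it was 5.91, 7.12 and 8.48 with vehicle and 6.38, 6.81 and 7.71 with TMAO. All high-glucose libraries were above all low-glucose libraries, and the vehicle libraries in high glucose were the most spread (coefficient of variation 17.9%). With vehicle the log2 fold change was 1.05 (SE 0.11), or 2.08-fold with a 95% confidence interval from 1.76 to 2.45. With TMAO it was 1.02 (SE 0.11), or 2.03-fold with an interval from 1.72 to 2.39. By size these were ranks 144 and 153 of the rises among 16222 genes.

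GENCODE M21 lists 39 transcripts of Crem, 32 of them protein coding, with 21 different start positions among the coding ones. The tables hold 1 count per gene, so ICER and the full-length activators and repressors were not separated. The share of Crem in the summed FPKM of Creb1, Crem and Atf1 was 10.9% ± 0.571 in low and 19.7% ± 2.05 in high glucose with vehicle (SD, n = 3 each). With TMAO it was 11.1% ± 0.956 and 20.2% ± 1.66 (SD, n = 3 each).

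Creb1 (ENSMUSG00000025958, plus strand of chromosome 1, 64532645 to 64604548) encodes CREB, the main CRTC partner. It ranged from 5.06 to 5.97 FPKM, the log2 fold change with glucose being 0.0026 (SE 0.062) with vehicle and 0.019 (SE 0.063) with TMAO. The 95% confidence intervals of Creb1 ran from 0.917-fold to 1.09-fold with vehicle and from 0.928-fold to 1.11-fold with TMAO. Atf1 (ENSMUSG00000023027, plus strand of chromosome 15, 100227819 to 100261244), which encodes a close relative that also dimerizes with CREB, stood far above Creb1 in level per length. In mean counts the 2 genes were close, at 1308.2 for Atf1 and 1412.3 for Creb1. Their lengths in the deposited table are 3060 and 13742 bases, so the order of the 2 depends on the lengths used. Atf1 was between 21.5 and 25.2 FPKM in the 12 libraries. Its log2 fold change was 0.055 (SE 0.054) with vehicle and 0.0032 (SE 0.054) with TMAO, so levels overlapped at both treatments.

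**Figure D2:**
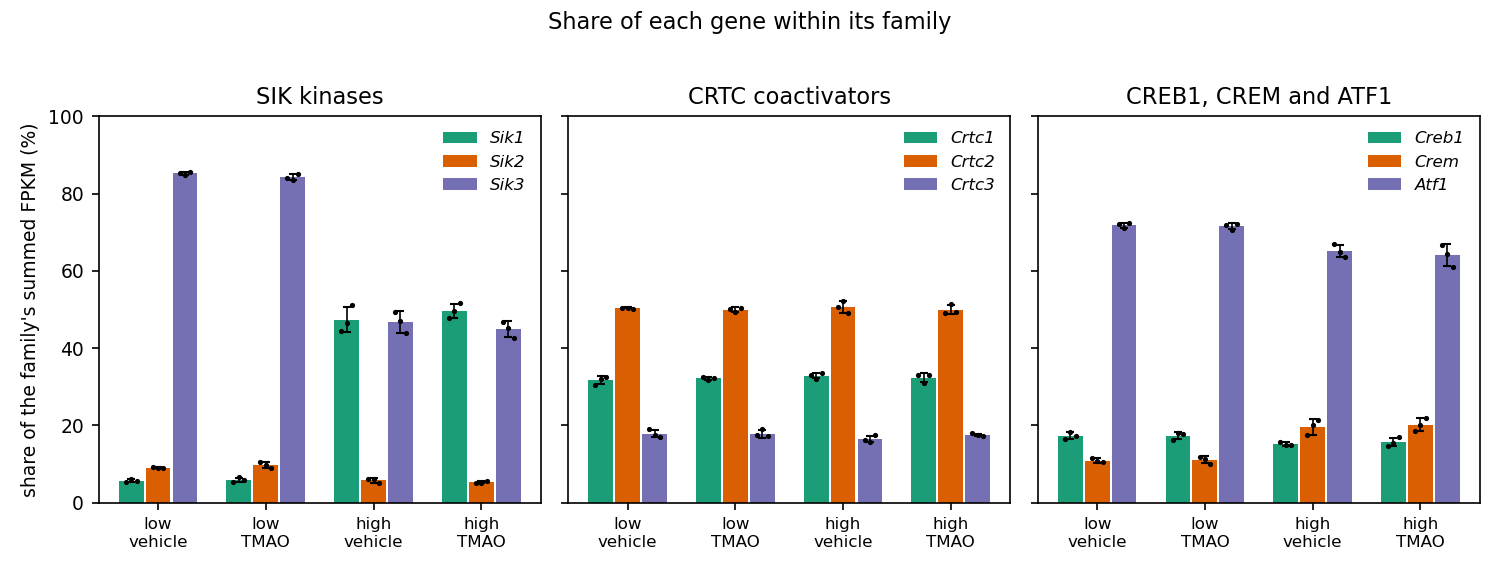
Share of each gene in the summed FPKM of its family (percent, bars: mean of 3 libraries, error bars: SD, points: libraries) in the 4 conditions. Sik1 lies between 5.32% and 6.54% of the SIK sum in low glucose and between 44.5% and 51.6% in high glucose. Crem averages 10.9% and 11.1% in low and 19.7% and 20.2% in high glucose, and the CRTC shares hardly move.

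The order of the genes by FPKM changed mainly through Sik1. Within a condition this order depends on the gene lengths used. In low glucose with vehicle the order was Sik3, Atf1, Crtc2, Crtc1, Creb1, Crtc3, Crem, Sik2 and Sik1. Of these neighbours, Creb1 and Crtc3 overlapped between libraries. The order was the same in low glucose with TMAO, where Crem and Sik2 overlapped as well. In high glucose with vehicle, Atf1, Sik1 and Sik3 led at 23.6, 22.9 and 22.6 FPKM, and each overlapped with the next. Crtc2, Crtc1, Crem, Creb1, Crtc3 and Sik2 followed without overlap between neighbours. In high glucose with TMAO, Sik1 led at 24.8 ± 1.07 FPKM (SD, n = 3) without overlap with Sik3, while Sik3 and Atf1 overlapped, as did Creb1 and Crtc3. With the M21 length this lead was lost, Sik1 then being at 21.8 ± 0.94 FPKM (SD, n = 3), below the 22.5 of Sik3 and the 22.1 of Atf1. Sik1 thus went from the lowest of the 9 genes to one of the top 3.

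The libraries of the 2 glucose levels did not overlap for 4 genes with vehicle (Sik1, Crem, Sik3 and Crtc3) and for 4 with TMAO (Sik1, Crem, Sik3 and Sik2), against 18.9% and 18.6% of all genes. Since these contrasts chose the genes, nothing is read from these counts and no test is given.

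The effect of TMAO did not enter the choice of genes and was tested. In high glucose, 0 of the 9 genes passed an adjusted p under 0.05 for TMAO against vehicle (edgeR quasi-likelihood test, Benjamini-Hochberg adjustment over all tested genes), and 0 of all tested genes passed (0%). DESeq2 and limma also called 0 of the 9. None of the 9 had an unadjusted p under 0.05, which 5.35% of all genes had. The libraries of TMAO and vehicle overlapped for all 9, where 11.2% of all genes did not overlap. The largest difference was that of Sik1, with a log2 fold change of 0.12 (SE 0.061, 95% confidence interval -0.0039 to 0.24, adjusted p = 0.910, edgeR). It was higher in mean with TMAO, 24.8 against 22.9 FPKM, but the vehicle library of 25.4 FPKM lay within the TMAO range. Atf1 had the lowest log2 fold change, -0.09 (SE 0.054). Over the 9 genes the confidence intervals ran from 0.833-fold to 1.18-fold, so larger changes than these were outside the interval of every gene.

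In low glucose, 0 of the 9 genes passed for TMAO against vehicle, by edgeR, DESeq2 or limma, where 0.00616% of all genes passed. Sik2 was the gene that stood out by its libraries. Its 3 TMAO libraries (3.21, 2.95 and 2.78 FPKM) were above its 3 vehicle libraries (2.78, 2.69 and 2.57 FPKM), the nearest pair being equal to 3 digits. The log2 fold change was 0.16 (SE 0.074, 95% confidence interval 0.0034 to 0.31). The p of Sik2 was 0.0454 before and 0.99991 after adjustment (edgeR), so the difference did not pass. It was the 1 gene of the 9 without overlap, which 6.34% of all genes showed, and the 1 gene with an unadjusted p under 0.05, which 2.20% of all genes had. The other log2 fold changes ranged from -0.04 for Atf1 to 0.099 for Sik1 (SE 0.106). The intervals of the 9 genes ran from 0.835-fold to 1.24-fold.

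Whether the glucose response differed between TMAO and vehicle was tested as the interaction, the difference of the log2 fold changes. None of the 9 genes passed by edgeR, DESeq2 or limma (0% of all genes by edgeR), and 1 of 9 had an unadjusted p under 0.05 against 3.36% of all genes. That gene was Sik2, with an interaction of -0.23 (SE 0.106, 95% confidence interval -0.45 to -0.016). Its p was 0.0359 before and 0.99976 after adjustment (edgeR). For Sik1 the interaction was 0.021 (SE 0.123, 95% confidence interval -0.23 to 0.27, adjusted p = 0.99976, edgeR). As a ratio of the glucose response of Sik1 with TMAO to that with vehicle, the 95% confidence interval ran from 0.853 to 1.21. For Crem the interaction was -0.04 (SE 0.16), with bounds of 0.771 and 1.23 times.

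**Figure D3:**
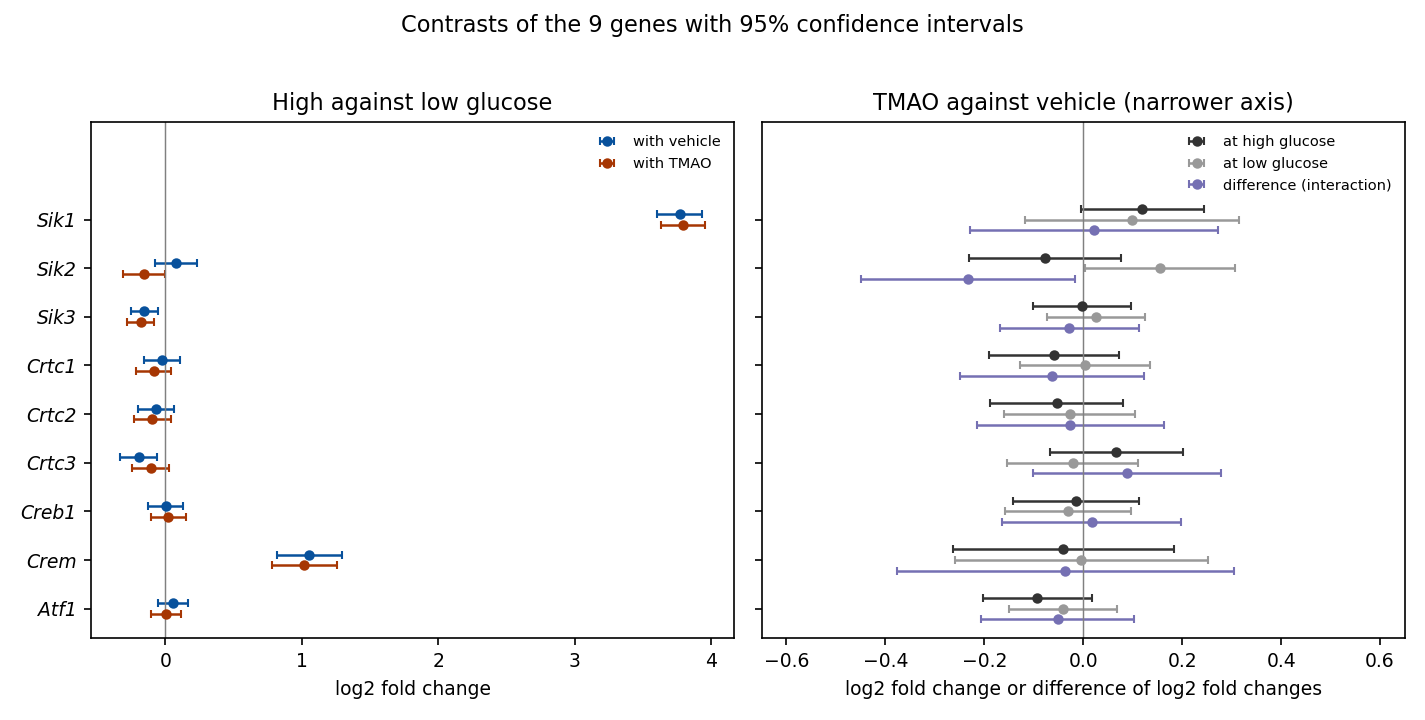
Log2 fold changes of the 9 genes from edgeR with 95% confidence intervals. The left panel shows high against low glucose for vehicle and for TMAO, and the right panel, on a narrower axis, TMAO against vehicle at each glucose level and the difference between them. Sik1 (3.77 and 3.79) and Crem (1.05 and 1.02) are far from 0 on the left. On the right every interval includes 0 except those of Sik2 in low glucose and for the difference.

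The genes whose level followed Sik1 most closely across the 12 libraries were ranked by Pearson correlation of log2 counts scaled to library size, among 12308 genes with a mean of at least 50 counts. The first 8 were Fosl2, Cebpd, Per1, Dusp1, B230216N24Rik, Nr4a2, Nr4a1 and Fam46a, with r from 0.998 to 0.994. The libraries share the 2 glucose levels, so r here mainly records the gap between them and is a description. Within the 6 low-glucose libraries the r of these genes ranged from -0.56 for Nr4a2 to 0.904 for Per1. Within the 6 high-glucose libraries it ranged from 0.389 for Per1 to 0.932 for Fam46a. Crem came at rank 62 with r = 0.970. Sik3 had the lowest r of the other members at -0.846, followed by Crtc3 at -0.698.

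Several of these genes are early-response genes. Fosl2 encodes an AP-1 subunit, Cebpd a C/EBP factor, Per1 a clock repressor and Dusp1 a phosphatase of MAP kinases. Nr4a1 and Nr4a2 encode orphan nuclear receptors. From low to high glucose with vehicle, Fosl2 went from 2.63 to 14.9 FPKM, with a log2 fold change of 2.50 (SE 0.082). Cebpd went from 1.55 to 14.9 FPKM, with a log2 fold change of 3.26 (SE 0.098). Dusp1 went from 10.7 to 38.7 FPKM, with a log2 fold change of 1.85 (SE 0.061). These genes were picked by their likeness to Sik1 over the same libraries, so their values are a description.

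Genes around the 3 families were read from lists of the pathway. Of 26 genes listed as cAMP and CREB targets, 24 were tested. With vehicle 18 were higher in high glucose, 1 was lower and 5 did not pass, where 3.30% of all tested genes passed in either direction. With TMAO 19 were higher, 1 was lower and 4 did not pass, where 3.64% of all tested genes passed. The median log2 fold change of the list was 0.82 with vehicle and 0.90 with TMAO, beside 0.0021 and 0.0012 over all tested genes. The lists were written with results of these data known, so these counts are a description. Many of the listed genes also answer to calcium and MAP kinase signals.

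The target genes with the largest log2 fold changes with vehicle were Nr4a1, Fos, Egr1 and Nr4a3. Nr4a1 went from 2.40 ± 0.252 to 20.7 ± 3.20 FPKM (SD, n = 3 each), a log2 fold change of 3.11 (SE 0.145). Fos, which encodes an AP-1 subunit, went from 1.11 ± 0.177 to 7.55 ± 0.661 FPKM, a log2 fold change of 2.76 (SE 0.14). Egr1, which encodes a zinc finger factor, went from 3.85 ± 0.207 to 23.2 ± 0.873 FPKM, a log2 fold change of 2.59 (SE 0.068). Nr4a3 went from 0.235 ± 0.0561 to 1.25 ± 0.276 FPKM, a log2 fold change of 2.40 (SE 0.205). With TMAO these 4 log2 fold changes were 2.97, 2.63, 2.09 and 2.61. The 1 lower gene was the phosphodiesterase gene Pde10a, at -0.17 with vehicle (adjusted p = 0.0418, edgeR) and -0.24 with TMAO. The 5 that did not pass with vehicle were Bdnf, Scg2, Cartpt, Sst and Inhba, of which Cartpt passed with TMAO. Pde10a and these 5 were picked out after their values were seen.

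Over the 9 other lists, of upstream and partner genes, 71 genes beside the targets were tested. With vehicle 2 were higher and 1 was lower, and with TMAO 1 was higher and 0 were lower, beside the 3.30% and 3.64% of all genes. At an unadjusted p under 0.05 the numbers were 8 with vehicle and 15 with TMAO, beside 2112 and 2385 of all 16222 genes. DESeq2 called 2 genes with each treatment, and limma 3 with vehicle and 1 with TMAO. With no filter on low counts edgeR called 3 and 4, and with the replicate number as a block 4 and 4. No gene passed by edgeR with either treatment among 9 PKA subunits and inhibitors, 5 genes of the LKB1 complex, 7 of calcineurin and its regulators, 9 calmodulin-dependent kinases, 7 14-3-3 proteins, and Crebbp and Ep300, which encode CBP and p300. Of these lists, 1 calmodulin-dependent kinase with vehicle, and 2 14-3-3 genes and both Crebbp and Ep300 with TMAO, had an unadjusted p under 0.05. With TMAO, DESeq2 and edgeR with no filter each called 1 of Crebbp and Ep300, and edgeR with the block called 1 of the 14-3-3 genes. limma called none in these lists.

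Among 11 other AMPK-related kinases, Snrk was higher in high glucose with vehicle, by 0.30 on the log2 scale (SE 0.058, adjusted p = 0.00131, edgeR). Nuak1 was lower, by a log2 fold change of -0.25 (SE 0.071, adjusted p = 0.0393, edgeR). Of all tested genes, 3.30% passed with vehicle and 3.64% with TMAO by edgeR. With TMAO none of the 11 passed by edgeR, DESeq2 or limma. At an unadjusted p under 0.05 there were 4, beside 2385 of all 16222 genes. However, 2 passed by edgeR with no filter on low counts and 2 with the replicate number as a block. By edgeR with the filter and no block, Snrk was at 0.12 and Nuak1 at -0.20 with TMAO. The lowest adjusted p of the 11 in that fit were those of Mark2 and Mark4, picked out after their values were seen. Mark2 had a log2 fold change of -0.16 (adjusted p = 0.0749, edgeR) and Mark4 one of -0.22 (adjusted p = 0.0802, edgeR). DESeq2 and limma each called 1 of the 11 with vehicle. Sik1 is a member of the same kinase family, and its log2 fold change of 3.77 stands beside these values.

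SIK kinases also phosphorylate class IIa HDACs, the partners of MEF2 factors. Of 8 such genes, Mef2d passed with both treatments, where 3.30% of all tested genes passed with vehicle and 3.64% with TMAO. Mef2d went from 23.8 ± 0.599 to 30.7 ± 1.29 FPKM with vehicle (SD, n = 3 each), a log2 fold change of 0.37 (SE 0.046, adjusted p = 1.65e-06, edgeR). With TMAO the log2 fold change of Mef2d was 0.24 (SE 0.046, adjusted p = 0.00128, edgeR). Of 14 other CREB and ATF factors tested, Atf3 passed with both treatments, beside the same shares of all tested genes. Atf3 is a stress-response gene that is also in the target list. Its log2 fold changes were 0.40 (SE 0.101, adjusted p = 0.0173) and 0.38 (SE 0.101, adjusted p = 0.0298) by edgeR. With limma no factor of this list passed with TMAO.

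**Figure D4:**
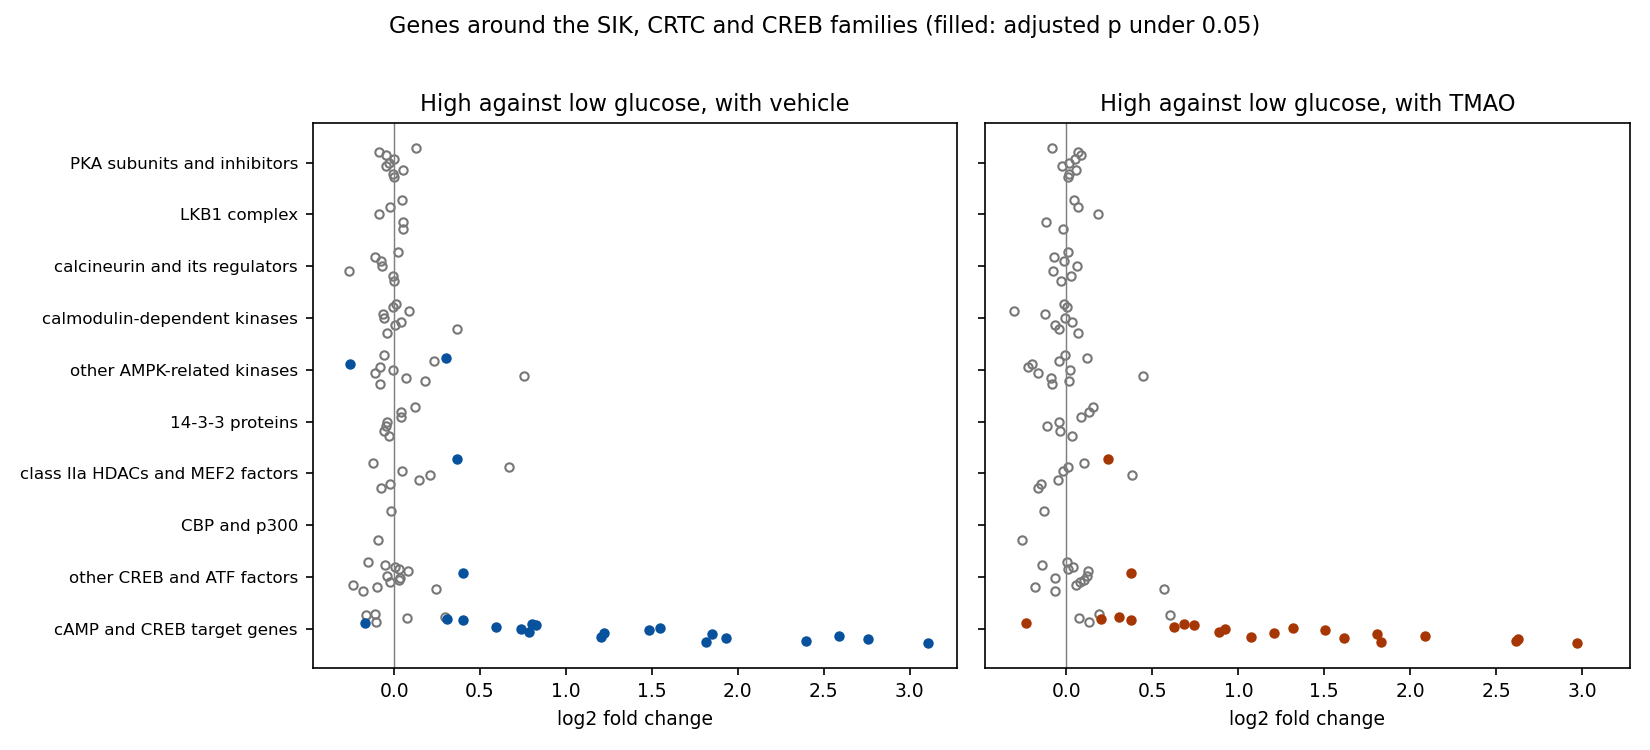
Log2 fold change from low to high glucose of each tested gene in the 10 pathway lists, with vehicle (left) and TMAO (right). Filled points passed an adjusted p under 0.05 in edgeR and open points did not. The target genes reach 3.11, whereas the filled points of all other lists lie between -0.25 and 0.40.

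For TMAO against vehicle, 1 listed gene passed in all. In high glucose 0 of 95 listed genes passed by edgeR, DESeq2 or limma, and 7 had an unadjusted p under 0.05, where 5.35% of all genes did. In low glucose 1 passed, Egr1, which was also the 1 gene called by edgeR among all 16222 tested genes (0.00616%). Egr1 was at 5.52 ± 0.52 FPKM with TMAO and 3.85 ± 0.207 FPKM with vehicle (SD, n = 3 each). For Egr1 the log2 fold change was 0.52 (SE 0.075, adjusted p = 0.00207, edgeR). limma did not call Egr1, and neither did edgeR without low-glucose TMAO replicate 2. Of the 24 target genes, 8 had an unadjusted p under 0.05 in low glucose, of which 7 were higher and 1, Sst, was lower with TMAO, where 2.20% of all genes had one in either direction. Sst is also the delta-cell marker. In the same contrast the delta-cell sum, which was Sst alone, was lower with TMAO. The macrophage sum, which was nearly all Cd68, was higher (3.88 to 4.10 against 2.91 to 3.63 FPKM). Neither overlapped between TMAO and vehicle, and 6.34% of all genes did not overlap either. The part of these markers in the result was not tested. The list had a median of 0.074 on the log2 scale, beside 0.0011 over all genes. In high glucose 3 had an unadjusted p under 0.05, all higher, beside the 5.35% of all genes, and the median was 0.067 beside 0.00039. Sik1, which did not pass at either glucose level, had 0.099 in low and 0.12 in high glucose. The target list was written with results of these data known, so its counts and medians here are a description.

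For the interaction, 0 of the 95 listed genes passed by edgeR and 4 had an unadjusted p under 0.05, beside the 3.36% of all genes. The 4 were the target genes Egr1 and Irs2, Pkig and Snrk, picked out after their values were seen. Egr1 had the lowest adjusted p of the list, with an interaction of -0.50 (SE 0.095, adjusted p = 0.188, edgeR), from glucose log2 fold changes of 2.59 with vehicle and 2.09 with TMAO. DESeq2 called it (adjusted p = 0.0462), as did edgeR with no filter on low counts (adjusted p = 0.00113) and edgeR without high-glucose TMAO replicate 1 (adjusted p = 0.0431). limma did not call it, and its adjusted p was 0.0541 to 0.99991 when any other library was left out of the edgeR fit.

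Promoters were read for CRE letters because CREB is the factor that the CRTC proteins join. The windows held 250 bases before and 50 bases after each start site in RefSeq on GRCm38.p6, and were read for 6 of the 9 genes. Those of Sik1, Crtc2 and Crem were not analysed here. The full palindrome TGACGTCA and the 5 letters TGACG were searched on both strands. The palindrome contains TGACG on each strand. The full CRE was in 1.79% and TGACG in 20.8% of 32851 promoters, or 2.03% and 23% of 27025 genes. Of the 6 members, 0 had the full CRE and 3 had TGACG, namely Sik2, Sik3 and Atf1.

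Of the 8 genes most like Sik1, 6 were read in 7 windows, Per1 having 2, and 1 of the 6 genes (Dusp1) held the full CRE and 5 held TGACG in at least 1 window. Of the 26 target genes, 23 were read in 34 windows, and 6 genes held the full CRE and 19 held TGACG in at least 1 window. Per1, Pde4b, Pde10a and Bdnf were read in 2, 4, 2 and 7 windows and so had more chances of a match. The 6 genes with the full CRE were Dusp1, Btg2, Scg2, Areg, Cartpt and Sst, of which Dusp1 and Btg2 rose with both treatments. Cartpt passed with TMAO, Scg2 and Sst did not pass with either treatment, and Areg was too low to be tested. Nr4a1 and Nr4a2 had 4 matches to TGACG each and no palindrome. A match is a run of letters, and no binding was measured.

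The 250 bases upstream of 4 genes are shown so that the letters can be compared, 5′ to 3′ on the strand of the gene, with matches to TGACG or its reverse complement CGTCA in capitals. Of the 6 members read, Sik3 has the most matches (3, at chr9:46012570-46012819, plus strand). Dusp1 (chr17:26508473-26508722, minus strand) has the palindrome. Nr4a1 (chr15:101266596-101266845, plus strand) and Nr4a2 (chr2:57124004-57124253, minus strand) have 4 matches each.
Sik3: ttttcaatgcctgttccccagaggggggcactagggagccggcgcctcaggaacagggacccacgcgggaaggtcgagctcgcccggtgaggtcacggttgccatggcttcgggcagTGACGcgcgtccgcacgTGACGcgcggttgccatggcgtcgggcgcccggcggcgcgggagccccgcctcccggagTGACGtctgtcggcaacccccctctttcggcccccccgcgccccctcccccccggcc
Dusp1: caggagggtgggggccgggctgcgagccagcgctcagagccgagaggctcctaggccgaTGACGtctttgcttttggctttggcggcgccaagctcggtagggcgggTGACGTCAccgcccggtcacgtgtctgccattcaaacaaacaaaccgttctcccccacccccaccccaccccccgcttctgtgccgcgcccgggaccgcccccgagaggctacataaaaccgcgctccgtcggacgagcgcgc
Nr4a1: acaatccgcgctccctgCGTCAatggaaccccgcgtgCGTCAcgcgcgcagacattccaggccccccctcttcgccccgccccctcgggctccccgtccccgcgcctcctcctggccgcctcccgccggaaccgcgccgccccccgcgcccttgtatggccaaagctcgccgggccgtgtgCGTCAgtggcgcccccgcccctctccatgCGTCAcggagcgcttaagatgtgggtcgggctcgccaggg
Nr4a2: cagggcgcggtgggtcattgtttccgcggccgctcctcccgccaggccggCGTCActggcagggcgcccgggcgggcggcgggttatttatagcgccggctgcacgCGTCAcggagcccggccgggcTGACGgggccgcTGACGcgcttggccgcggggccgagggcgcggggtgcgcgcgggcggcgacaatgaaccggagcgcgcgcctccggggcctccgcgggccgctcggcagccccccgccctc
The palindrome of Dusp1 starts at position -143 from its start site. The 3 matches of Sik3 start at -133, -116 and -57, and all read TGACG on the strand of the gene. The 4 matches of Nr4a1 all read CGTCA. Sik3, with 3 such matches, was lower in high glucose in every library, while Dusp1, Nr4a1 and Nr4a2, picked by their likeness to Sik1, were higher. Sik2, with 2 matches, had glucose log2 fold changes of 0.076 with vehicle and -0.16 with TMAO. Atf1, with 1 match, had 0.055 and 0.0032.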

How the data were processed

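RNA from MIN6 cells given vehicle or TMAO (100 nM, 18 h) at 2.8 or 16.8 mM glucose was sequenced after poly-T selection with the NEBNext Ultra kit. The submitters' processing notes name HISAT2 2.0.5, featureCounts 1.5.0-p3, DESeq2 1.16.1 and mm10, with no role or order. The annotation release and strand setting are not given in the sources used here. The authors deposited a table of raw counts per gene without normalization. The deposited FPKM table equals count over gene length and a library total within 1.37% of the summed counts.

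Counts were tested in R 4.3.3 with edgeR 4.0.16 (filterByExpr, TMM, robust quasi-likelihood F test) on all 12 libraries in a model of 4 condition means. Genes were called at a Benjamini-Hochberg adjusted p under 0.05 over 16222 genes. The SE is the log2 fold change over the square root of F. TMM factors were 0.994 to 1.009 and the biological coefficient of variation 5.34%. Groups come from the sample titles. No libraries of a condition were as alike as repeated draws from 1 library. Alternatives used DESeq2 1.42.0, limma 3.58.1 on log2-transformed FPKM with a pseudocount of 1 or of 0.1, which understates fold changes of low genes, other filters, a replicate block and each library left out. The steps were tested on simulated data. Figures were drawn with matplotlib 3.10.9.

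The members and lists were chosen with earlier results of these data known. Named genes are the 9 members, in each list the 4 called genes with the largest glucose change with vehicle, and the 8 genes most correlated with Sik1 (log2 CPM, prior count 2). Members whose TMAO and vehicle libraries did not overlap were given with their values. Coordinates are those of the tables. They equal GENCODE M21 for all members except Sik1.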

Additional observations from a re-analysis of the deposited data

How the results depend on the processing

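The 0 members called for TMAO at high glucose, TMAO at low glucose and the interaction stayed at 0 under every alternative run. Listed genes called ranged from 19 to 24 with vehicle and from 18 to 24 with TMAO over all alternatives. For TMAO at low glucose, the 1 listed gene called (Egr1) became 0 with limma at either pseudocount (1 or 0.1 added to FPKM), and between 0 and 1 when 1 library was left out, with 0 without low-glucose TMAO replicate 2. The cause was not tested. The log2 fold change of Sik1 with glucose ranged from 3.16 to 3.83 with vehicle and from 3.21 to 3.86 with TMAO. The lowest values came from limma with a pseudocount of 1, which understates the change of a gene at 1.6 FPKM. That of Crem ranged from 0.865 to 1.17 and from 0.843 to 1.08. Counts per kilobase give the Sik1 share of FPKM by construction. With the GENCODE M21 length of Sik1, an alternative chosen after seeing the data, its share was 5.03% and 5.24% in low glucose with vehicle and TMAO, and 44.2% and 46.5% in high glucose. Of the members' 27 TMAO and interaction values, 14 changed sign under at least 1 alternative, none of them called, and the values of Sik2 kept their sign.

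Over all tested genes, the calls for TMAO at high glucose were 0, and 13 with no filter, 3 with DESeq2 and 3 with only the 2 groups compared. At low glucose they were 1, and 7, 1 and 3. For the interaction they were 0, and 6 with no filter and 1 with DESeq2. With glucose, limma called 413 genes with vehicle at a pseudocount of 1 and 403 at 0.1, against 536 by edgeR, and 351 and 334 with TMAO, against 591. With 1 library left out edgeR called from 328 to 625 genes with vehicle and from 344 to 657 with TMAO. The count fell by over 1.5 times with vehicle without low-glucose vehicle replicate 2 (341) or high-glucose vehicle replicate 3 (328), and with TMAO without low-glucose TMAO replicate 1 (365) or high-glucose TMAO replicate 3 (344).

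With the replicate number as a block, 0 members were called for TMAO at either glucose level and for the interaction. The block called 24 listed genes with glucose for each treatment, and 717 and 783 of all genes. Whether same-numbered libraries were handled together is not given in the sources used here. Their deviations from the condition means had r from -0.0377 to 0.213 in 18 pairs, with 2 over 0.1. These 2 were vehicle against TMAO in low glucose, replicates 1 (0.213) and 3 (0.147). With 3 libraries in a condition this measure cannot settle whether the libraries were paired.

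In low glucose Sik1 had 136 to 172 counts per library, and its interval for TMAO ran from 0.921-fold to 1.24-fold. Isoforms, protein and activity were not measured.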
